A study of Mus musculus with 2 samples.

Results

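The genes of the mitochondrial ribosomal proteins were examined in differentiating erythroleukemia cells. They were the protein-coding genes whose symbol begins with Mrpl or Mrps and a digit. GENCODE M21 annotates 78 such genes, and 77 of them were matched in the deposited gene tables, among 43346 genes in all. Of the 77, 48 are named for the large ribosomal subunit (Mrpl) and 29 for the small subunit (Mrps). Mrpl33 had no match and was not analysed here. MEL cells are a mouse erythroleukemia line, blocked as red cell precursors, and dimethyl sulfoxide (DMSO) releases that block. Polyadenylated RNA came from MEL cells given 2% DMSO over 5 days and was read by single-end sequencing in 2 libraries of this 1 group. No untreated cells were analysed here, so the values are levels after treatment and say nothing of a response to DMSO. The labels call the libraries biological replicates 1 and 2, yet both carry one biosample identifier, so the spread between them may be technical.

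Replicate 1 held 26149725 estimated reads and replicate 2 held 14149299, which puts the upper limit for a gene with no reads at 0.115 and 0.212 CPM, counts scaled to the library total (3 reads, counting error only). All 13 erythroid markers were detected, among them the globin gene Hbb-bs with 8546 and 12944 TPM in replicates 1 and 2. TPM divides reads by transcript length and by the library's total, and detected means at least 1 TPM in both libraries. Of 11 markers of other blood and tissue cells 2 were detected, the megakaryocyte genes Itga2b (74.7 and 149 TPM) and Pf4 (13.7 and 20.1 TPM). The summed level of these 11 was 92.4 TPM in replicate 1 and 173 TPM in replicate 2, and Pax5, S100a8, Cpa3, Cdh5 and Alb were listed at 0. In bulk RNA, fewer cells of a type and less RNA per cell cannot be told apart.

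Mitochondria keep their own ribosome, which makes the handful of proteins encoded by mitochondrial DNA, all of them parts of the respiratory chain and ATP synthase. Its ribosomal RNAs come from the mitochondrial genome, while every protein of its large and small subunits is encoded in the nucleus, made in the cytosol and imported. Many of these proteins have bacterial homologs and others are found only in mitochondrial ribosomes. In red cell precursors mitochondria also carry out the first and last steps of heme synthesis.

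Nearly the whole family was present at moderate and similar levels. Of the 77 genes, 76 (98.7%) were detected, 47 of 48 for the large subunit and 29 of 29 for the small one, against 45.5% of all protein-coding genes (9776 of 21474). The median member had 22.7 TPM in replicate 1 and 27.9 TPM in replicate 2, against 13.8 and 15.9 TPM for the median detected protein-coding gene. That member level was above 63.5% and 67.3% of detected protein-coding genes. Levels of 56 members lay between 10 and 100 TPM in both libraries, 2 were above 100 TPM in both and 10 were under 10 TPM in both. The members' spread on the log2(TPM + 1) scale was narrow, with an SD of 1.23 and 1.28, beside 1.86 and 1.77 for detected protein-coding genes. Together the members made up 0.240% (replicate 1) and 0.296% (replicate 2) of TPM (mean 0.268% ± 0.0395, SD, n = 2). Their share of estimated reads was 0.184% (95% exact binomial interval 0.182 to 0.186, counting error only) and 0.237% (0.234 to 0.239).

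**Figure D1:**
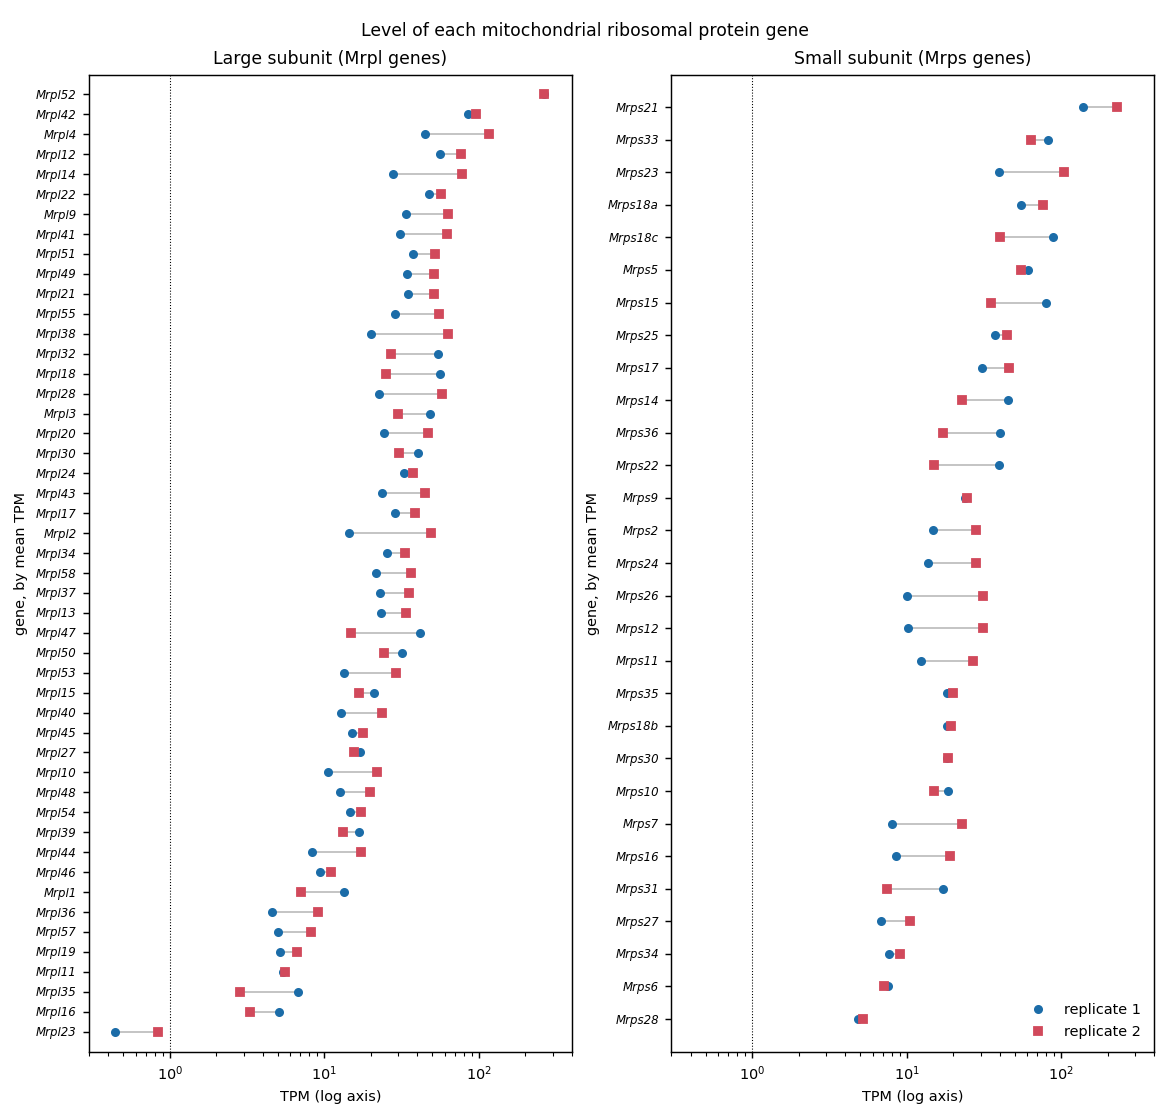
TPM of each mitochondrial ribosomal protein gene on a log axis, large subunit at left and small subunit at right, genes ordered by mean. Circles are replicate 1, squares replicate 2, grey lines join them, and the dotted line marks 1 TPM. Mrpl52 and Mrps21 lead, and Mrpl23 is the only gene left of the dotted line.

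Among large-subunit genes, the highest was Mrpl52, which encodes a protein found only in mitochondrial ribosomes (chr14:54426909-54429756, plus strand, mm10). It had 262.9 TPM in replicate 1 and 261.7 TPM in replicate 2 (mean 262 ± 0.849, SD, n = 2), and alone made up 18.1% and 13.8% of the large-subunit TPM. Its transcript is the only one listed for the gene and is 412 bases long. Mrpl42, another mitochondria-specific protein, was next with 84.3 and 95.3 TPM (89.8 ± 7.75). Mrpl52 exceeded it in both libraries by far more than either gene moved between them.

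The following 6 large-subunit genes overlapped one another across libraries. Mrpl4 (the homolog of bacterial L4, near the exit tunnel) had 44.5 and 117 TPM in replicates 1 and 2. Mrpl12, the stalk protein that recruits translation factors, had 55.9 and 76.8 TPM. Mrpl14 (L14, at the face that meets the small subunit) had 28.0 and 77.4 TPM. In each of these genes the 2 libraries lay farther apart than the mean of the gene did from that of its neighbour in the order. Mrpl22 (L22, a tunnel protein) had 47.2 and 56.9 TPM, Mrpl9 had 33.6 and 62.9 TPM, and the mitochondria-specific Mrpl41 had 31.0 and 62.5 TPM. The partners of the stalk stood lower than Mrpl12 in both libraries. Mrpl10, which anchors the stalk, had 10.5 and 22.0 TPM, and Mrpl11, at the stalk base, had 5.40 and 5.56 TPM. The gap to Mrpl10 depended on the summary. Over protein-coding transcripts alone Mrpl12 had 11.54 and 28.75 TPM, beside 10.51 and 22.03 TPM for Mrpl10.

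Among small-subunit genes Mrps21, the homolog of bacterial S21, was highest (chr3:95862634-95871519, minus strand, mm10). It had 138 TPM in replicate 1 and 228 TPM in replicate 2 (183 ± 63.6), or 14.5% and 21.3% of the small-subunit TPM. It was below Mrpl52 and above all other members in both libraries. Mrps33 followed with 81.9 and 64.1 TPM, and Mrps23 with 39.4 and 105 TPM, both found only in mitochondrial ribosomes. Mrps5 (S5, at the messenger entry) had 60.8 and 54.4 TPM, Mrps15 (S15) 79.1 and 35.2 TPM, and the mitochondria-specific Mrps25 37.1 and 44.4 TPM. Over protein-coding transcripts alone Mrps25 had 3.57 and 0.72 TPM, and it shares 4590 exon bases with Nr2c2 on the opposite strand. Mrps33 was above Mrps5, and Mrps5 above Mrps25, in both libraries, while Mrps23 and Mrps15 moved past others between the libraries.

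The paralogs Mrps18a, Mrps18b and Mrps18c are 3 descendants of one bacterial S18 gene whose proteins sit at different places in the ribosome. Mrps18c, which holds the S18 position, had 87.8 and 40.1 TPM in replicates 1 and 2. Mrps18a, which lies in the large subunit despite its symbol, had 54.5 and 75.7 TPM. Mrps18b, a small-subunit protein, was lowest of the 3 in both libraries with 18.2 and 19.3 TPM, and the other two changed order. Mrps30, also a large-subunit protein by structure, had 18.1 and 18.4 TPM. Mrps36, now known mainly as a component of the alpha-ketoglutarate dehydrogenase complex, had 40.1 and 17.2 TPM.

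Besides Mrpl23, 9 members were under 10 TPM in both libraries, 6 of the large subunit and 3 of the small one. Mrpl16 (L16, near the peptidyl transferase centre) had 5.05 and 3.32 TPM, Mrpl35 6.79 and 2.84 TPM, Mrpl19 5.17 and 6.65 TPM, and the mitochondria-specific Mrpl57 5.02 and 8.24 TPM. The lowest small-subunit gene was Mrps28, with 4.80 and 5.24 TPM. Mrps6 (S6) had 7.53 and 7.10 TPM, Mrps34 had 7.65 and 8.97 TPM and Mrps27, a pentatricopeptide-repeat protein just past that limit, had 6.77 and 10.4 TPM. In each library these 4 small-subunit genes lay close together. Mrps31, with 17.1 and 7.44 TPM, and Mrps16 (S16), with 8.54 and 19.0 TPM, were next, and their order differed between the libraries.

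The windows around the transcription start are shown for 5 members, because they belong to the highest gene of each subunit (Mrpl52, Mrps21), to a paralog of the S18 set (Mrps18a) and to 2 genes that share their start region with a neighbour (Mrps12, Mrpl32). Each runs 5′ to 3′ along the gene, 250 bases before to 50 after the RefSeq start (GRCm38.p6). They lie at chr14:54426659-54426958 (plus strand, Mrpl52), chr3:95871465-95871764 (minus, Mrps21), chr17:46110754-46111053 (plus, Mrps18a), chr7:28741772-28742071 (minus, Mrps12) and chr13:14612988-14613287 (minus, Mrpl32). Capitals mark letters of 3 factors known to bind promoters of nuclear genes for mitochondria, on either strand: CCGGAAG for ETS factors such as GABPA, GCGC, any base and TGCGC in a row for NRF1 and AAGATGGCG for YY1.
Mrpl52: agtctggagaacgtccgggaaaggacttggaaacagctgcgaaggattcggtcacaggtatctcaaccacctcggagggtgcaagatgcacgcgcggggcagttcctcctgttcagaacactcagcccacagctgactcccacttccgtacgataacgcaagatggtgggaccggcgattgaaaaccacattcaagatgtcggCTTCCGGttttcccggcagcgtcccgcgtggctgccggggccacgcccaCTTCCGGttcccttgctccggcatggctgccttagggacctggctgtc
Mrps21: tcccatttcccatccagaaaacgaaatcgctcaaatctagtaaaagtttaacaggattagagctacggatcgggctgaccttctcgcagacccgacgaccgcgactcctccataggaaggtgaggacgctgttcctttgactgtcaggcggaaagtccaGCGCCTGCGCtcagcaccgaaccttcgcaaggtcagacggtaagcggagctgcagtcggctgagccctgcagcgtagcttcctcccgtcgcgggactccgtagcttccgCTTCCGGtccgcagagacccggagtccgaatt
Mrps18a: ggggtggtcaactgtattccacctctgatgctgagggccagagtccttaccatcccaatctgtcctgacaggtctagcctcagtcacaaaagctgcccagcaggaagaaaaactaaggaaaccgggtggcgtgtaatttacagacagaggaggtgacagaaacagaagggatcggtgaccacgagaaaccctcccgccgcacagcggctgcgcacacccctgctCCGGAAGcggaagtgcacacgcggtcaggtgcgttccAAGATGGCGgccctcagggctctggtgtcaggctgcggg
Mrps12: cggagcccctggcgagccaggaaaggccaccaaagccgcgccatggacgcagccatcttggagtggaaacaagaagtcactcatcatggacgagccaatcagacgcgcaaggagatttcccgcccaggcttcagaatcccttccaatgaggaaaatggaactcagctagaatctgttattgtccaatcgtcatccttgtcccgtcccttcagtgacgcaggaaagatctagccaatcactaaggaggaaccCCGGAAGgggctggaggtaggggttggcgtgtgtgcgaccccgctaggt
Mrpl32: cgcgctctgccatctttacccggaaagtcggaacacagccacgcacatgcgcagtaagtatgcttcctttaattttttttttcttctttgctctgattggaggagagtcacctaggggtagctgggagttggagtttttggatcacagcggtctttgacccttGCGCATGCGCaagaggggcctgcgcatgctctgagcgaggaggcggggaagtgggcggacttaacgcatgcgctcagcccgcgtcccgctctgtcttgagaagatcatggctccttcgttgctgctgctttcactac
Mrpl52 carries the ETS letters at 2 places, at positions -47 and 3 from the start. Mrps21 has the NRF1 letters at -91 and the ETS letters at 19, and Mrps18a the ETS letters at -26 and the YY1 letters at 12. Mrps12 has the ETS letters at 2, and Mrpl32 a palindromic NRF1 match at -87.

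These motif letters were frequent in the members' windows. A RefSeq window was at hand for 68 of the 77 members (74 windows). The ETS letters occurred in 25 of 68 members (36.8%), beside 39.4% of 66 cytosolic ribosomal protein genes, 23.4% of 7852 detected protein-coding genes and 9.93% of all 27025 genes with a window. The NRF1 letters occurred in 13 members (19.1%), beside 9.09%, 13.4% and 5.19% in the same 3 sets. The YY1 letters occurred in 8 members (11.8%), beside 6.06%, 4.30% and 1.64%. At least 1 of the 3 was present in 58.8% of members, 51.5% of cytosolic ribosomal protein genes, 36.4% of detected protein-coding genes and 15.1% of all genes. The median GC content of the windows was 58.8% in members, 61.3% in detected protein-coding genes and 52.7% in all genes.

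Most matches lay close to the start. Of the 30 ETS matches in members 27 were within 100 bases of the start (median position -18), against 75.5% of ETS matches in detected protein-coding genes. The same held for 14 of 16 NRF1 matches (median -43.5), against 72.0%, and for 7 of 8 YY1 matches (median 19.5), against 78.8%. NRF1 letters were found in 10 of 42 large-subunit genes and 3 of 26 small-subunit genes, ETS letters in 14 and 11, and YY1 letters in 4 of each. Members with the ETS letters had a median of 28.7 and 33.2 TPM in replicates 1 and 2, and members without them 22.7 and 24.6 TPM. Members with the YY1 letters had 13.0 and 27.4 TPM, and those without 24.9 and 29.5 TPM. A match is a description of letters and not a bound site, and these differences have no test.

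**Figure D2:**
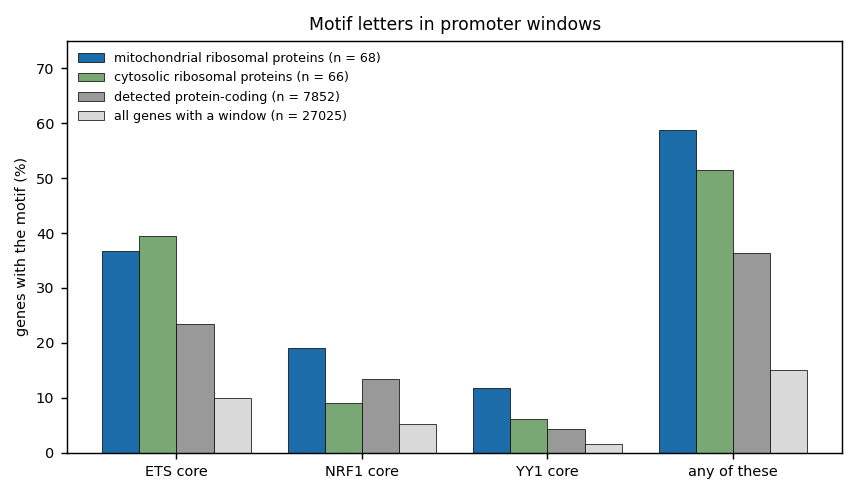
Percent of genes whose promoter window holds the letters of each motif, on either strand, for mitochondrial ribosomal protein genes, cytosolic ribosomal protein genes, detected protein-coding genes and all genes with a window. The members are at 36.8% for ETS, 19.1% for NRF1, 11.8% for YY1 and 58.8% for any of these.

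The rule for the members asks for a comparison of the subunits, and it gave no stable order. Large-subunit genes had a median of 23.1 TPM in replicate 1 and 30.1 TPM in replicate 2, against 18.2 and 24.6 TPM for small-subunit genes. The difference of medians on the log2(TPM + 1) scale was 0.33 and 0.29 (mean 0.31 ± 0.03, SD, n = 2), small beside the SD among genes of 1.24 and 1.36 within the large subunit and 1.23 and 1.14 within the small one. The average gene went the other way in replicate 1, with 30.3 TPM for the large subunit and 32.8 TPM for the small one, and not in replicate 2, with 39.4 and 36.9 TPM. When TPM was summed over transcripts classed as protein-coding in GENCODE M21, large-subunit genes had medians of 13.1 and 17.6 TPM. Small-subunit genes had 15.6 and 18.4 TPM, so the sign of the log2 difference turned (-0.23 and -0.06). Which subunit was higher thus depended on the summary.

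The summed levels differed with the number of genes. The large subunit totalled 1452 and 1893 TPM in replicates 1 and 2, and the small subunit 952 and 1070 TPM. Moving Mrps18a and Mrps30 to the large subunit and leaving out Mrps36 gave differences of medians of 0.33 and 0.22. Genes whose proteins hold a place that bacterial ribosomes also fill (45 members) had medians of 23.9 and 27.9 TPM, against 18.2 and 24.3 TPM for 31 genes whose proteins hold a mitochondria-specific place, Mrps18a and Mrps18b included. That difference was 0.38 in replicate 1 and 0.20 in replicate 2 on the log2(TPM + 1) scale (mean 0.29 ± 0.13). The most abundant member of all, Mrpl52, belonged to the mitochondria-specific set.

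The cytosolic ribosome offered the closest family for comparison. Members had medians of 22.7 and 27.9 TPM in replicates 1 and 2, against 359.9 and 585 TPM for 87 cytosolic ribosomal protein genes, of which 83 were detected. On the log2(TPM + 1) scale members were lower by 3.93 and 4.34 (mean -4.14 ± 0.29), which corresponds to 17.6-fold. The cytosolic genes were also far more spread, with an SD of 3.01 and 3.03 on that scale. Among their highest members were Rps26, with 20387 and 37688 TPM, Rpl28, with 4783 and 11458 TPM, and Rpl41, with 7741 and 7747 TPM. The paralogs Rpl10l and Rpl39l were listed at 0 in both libraries and Rpl3l had 0.19 and 0 TPM.

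**Figure D3:**
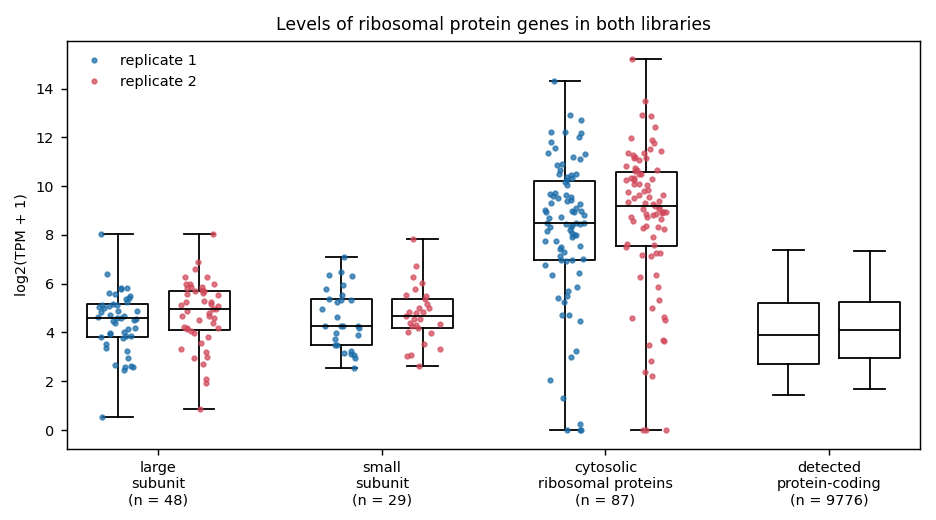
Levels on the log2(TPM + 1) scale for large-subunit and small-subunit mitochondrial ribosomal protein genes, cytosolic ribosomal protein genes and detected protein-coding genes, replicate 1 at left and replicate 2 at right of each pair. Boxes show quartiles and the median; whiskers reach the extremes (5th and 95th percentiles for detected protein-coding genes, whose points are not drawn). The subunits overlap and lie below most cytosolic genes.

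Mrpl23 was the only member under the detection limit, and a near-identical copy held many more reads. Mrpl23 (the homolog of bacterial L23, chr7:142532686-142540747, plus strand, mm10) had 0.44 TPM in replicate 1 and 0.84 TPM in replicate 2, from 7.07 and 7.46 estimated reads. The authors' posterior mean of TPM for it was higher, 0.84 and 1.61. None of those reads was assigned to its protein-coding transcript, and all lay on transcripts that retain an intron. The processed pseudogene Mrpl23-ps1 (chr2:74591330-74591909, minus strand, mm10) had 35.0 and 37.8 TPM, from 455 and 278 estimated reads. A processed pseudogene is a messenger copied back into the genome. This one matches an Mrpl23 transcript at 100% identity over 93.1% of its length, so the level of the gene and of the copy cannot be told apart.

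Other members had copies too. At no less than 90% identity over no less than 80% of the copy, 43 pseudogenes matched 26 members, of which 32 were in the tables. 16 of these had no reads in either library, and 7 had at least 1 TPM in both. Gm14017, a copy of Mrpl51 (98.5% identity), had 42.2 and 42.4 TPM, against 37.2 and 51.9 TPM for Mrpl51 itself. Gm5776 had 19.3 and 26.0 TPM beside 81.9 and 64.1 TPM for Mrps33. The copy was above the gene in replicate 1 and below it in replicate 2 for Mrpl51, and below it in both for Mrps33. Gm13328 had 18.6 and 20.4 TPM beside 60.8 and 54.4 TPM for Mrps5. Gm6419 had 2.58 and 32.6 TPM beside 84.3 and 95.3 TPM for Mrpl42, the most uneven of these copies between libraries. Mrpl48-ps (4.43 and 1.08 TPM) and Gm7258, a copy of Mrps36 (6.75 and 1.96 TPM), were lower than their genes. Values of all these members are uncertain by what the estimation gave to the copy.

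Many members were led by a transcript that GENCODE M21 does not annotate as protein-coding. Classes of M21 were matched by ID to tables counted on GENCODE M4. How much of the result comes from that change of annotation was not tested. By mean share over both libraries, 21 of 77 members (27.3%) had such a leading transcript, 16 of 48 in the large subunit and 5 of 29 in the small one. The same held for 12 of 82 detected cytosolic ribosomal protein genes (14.6%) and 17.3% of 9671 detected protein-coding genes. The 21 include Mrpl23, which was not detected. Counted too are Mrpl17 and Mrpl38, led by a coding transcript in replicate 1 and replicate 2, respectively. Not counted are Mrpl13, led by another class in replicate 2, and Mrpl24 and Mrps18a, so led in replicate 1. Of the 21, 9 were led by a processed transcript, 6 by one with a retained intron and 6 by one marked for nonsense-mediated decay. The median share of a member's TPM on protein-coding transcripts was still 96.1% and 94.5% in replicates 1 and 2. It was over 90% in both libraries for 40 members and under 50% in at least 1 library for 22. Coding shares were not computed for other genes, so whether these are particular to the members cannot be told.

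Mrpl14, Mrps26 and Mrpl12 were among these. Mrpl14 had 99.3% and 98.4% of its TPM on a 510-base processed transcript, while its coding transcript held 0 and 4.01 estimated reads. Mrps26 had 97.8% and 98.0% on a transcript with a retained intron. Mrpl12 had 79.4% and 62.6% on a processed transcript and 20.6% and 37.4% on its coding one. In all 3 genes the leading transcript was the same in both libraries. The only transcript listed for Mrpl32 is marked for nonsense-mediated decay in the later annotation.

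The leading transcript was the same in both libraries for 64 members and differed for 13 (16.9%, beside 23.1% of detected protein-coding genes). The leading transcript of Mrpl55 over both libraries, of 757 bases, held 17.4% of that gene's TPM in replicate 1 and 89.7% in replicate 2. Another coding transcript of Mrpl55, of 718 bases, held 69.1% and 0%. An 843-base transcript of Mrps17 held 0% and 59.2%. Both genes shifted among coding transcripts, so their coding share was 100% throughout. The leading transcripts of Mrpl38 (94.4% and 47.8%), Mrpl51 (89.9% and 45.4%) and Mrpl3 (65.8% and 34.8%) lost share in replicate 2. So did those of Mrps24 (83.5% and 60.3%) and Mrpl58 (67.4% and 45.5%), while those of Mrpl17 (45.4% and 70.7%) and Mrps18a (27.5% and 52.3%) gained. Reads are divided among transcripts that share exons, so these shares are estimates.

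**Figure D4:**
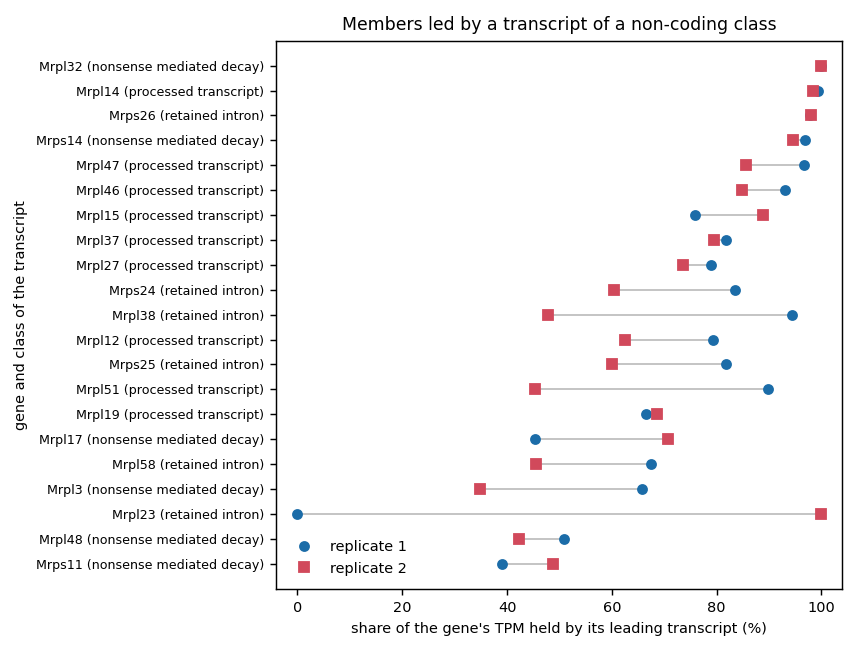
Share of each gene's TPM held by its leading transcript, in percent, for the 21 members whose leading transcript is not protein-coding in GENCODE M21. Labels give the class of that transcript. Circles are replicate 1, squares replicate 2 and grey lines join them; Mrpl14 and Mrps26 sit near 98% in both, and Mrpl38 and Mrpl51 shift by over 40 points.

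Between the replicates the members moved about as often as other genes. Among 76 members with a mean of at least 10 reads, 9 (11.8%) were at least 2-fold higher in replicate 2 than in replicate 1, against 14.1% of protein-coding genes, and 10 (13.2%) at least 2-fold lower, against 14.6%. The median log2 ratio of replicate 2 over replicate 1 was 0.12, within a range of -1.58 to 1.55. Scaled to total counts the median was 0.37 and 16 members (21.1%) were at least 2-fold higher, against 22.1% of protein-coding genes, and 7 at least 2-fold lower (9.21%, against 9.54%). The ratio of TPM also gave 0.37 and 16 members higher, against 21.1% of protein-coding genes, and 9 lower (11.8%, against 10.8%). With 1 library against 1 these ratios have no test. The 5 highest were those of Mrps7 (S7, 1.55), Mrpl38 (1.50), Mrps26 (1.43), Mrps12 (S12, at the decoding centre, 1.41) and Mrpl14 (1.28). Mrps7 had 8.03 TPM in replicate 1 and 22.7 TPM in replicate 2, Mrpl38 20.1 and 63.0 TPM, Mrps26 10.1 and 31.3 TPM, and Mrps12 10.1 and 30.9 TPM. All 5 had GC-rich transcripts, from 55.1% in Mrps7 to 61.1% in Mrps26. The 5 lowest were those of Mrps22 (-1.58), Mrpl35 (-1.44), Mrpl18 (L18, -1.41), Mrps36 (-1.41) and Mrps15 (-1.39). Mrps22 had 39.6 and 14.9 TPM and Mrpl18 had 55.8 and 24.9 TPM. The GC content of these 5 ran from 43.6% in Mrpl35 to 54.1% in Mrps15. Mrpl18 had 50.3%, and Mrps15 lay above the members' median of 50.9%, so the lowest were not all GC-poor.

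The ratio moved with the GC content of the transcripts. Across the 76 members Pearson's r was 0.63 and Spearman's rho 0.61, and across 8893 protein-coding genes 0.73 and 0.78; genes of one pair of libraries are not independent, and both measures share these libraries. The 9 members under 45% GC had a median log2 ratio of -0.94, the 21 from 45 to 50% -0.21, the 29 from 50 to 55% 0.38 and the 17 above 55% 0.96. Of the 9 members at least 2-fold higher 8 lay above 55% GC. After the trend over those 8893 genes was taken out, 3 members were at least 2-fold higher in replicate 2 (Mrpl57, Mrps16 and Mrps23). Another 4 were at least 2-fold lower (Mrps15, Mrpl18, Mrps36 and Mrps22). The 3 and the 4 are 3.95% and 5.26% of members, against 5.37% and 6.93% of protein-coding genes treated the same way. The SD of the members' ratios fell to 0.62, against 0.81 with the trend left in.

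**Figure D5:**
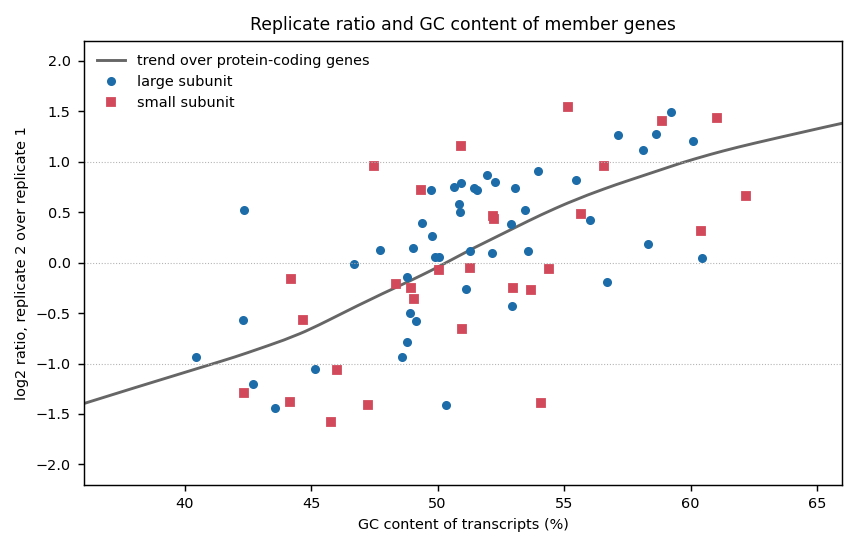
Log2 ratio of replicate 2 over replicate 1 against the GC content of the transcripts (percent) for 47 large-subunit (circles) and 29 small-subunit genes (squares), with the trend over protein-coding genes as a line. Dotted lines mark no change and 2-fold changes; members rise along the line, and Mrps15 and Mrpl18 lie farthest below it.

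Member genes were short and often faced a neighbour. Their median span was 7.89 kb and their median effective transcript length 855 bases, against 23.6 kb and 2123 bases for detected protein-coding genes. Level and effective length were inversely related over the 77 members (Pearson's r -0.42, Spearman's rho -0.40), and TPM divides by that length. The members lie on 17 chromosomes, with 11 on chromosome 11, 8 on chromosome 17 and 7 on chromosome 6. A protein-coding gene on the other strand started within 1000 bases upstream, or overlapped the start by up to 500 bases, for 26 members (33.8%, 18 large and 8 small), against 16.6% of detected protein-coding genes and 9.53% of all.

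The neighbours at these shared starts ranged from under 1 TPM to levels far above the member. Of the 26, 24 were detected. The member was higher than its neighbour in both libraries in 13 cases and lower in both in 10. Mrpl46 and Mrps11 are each other's neighbour, so their pair enters both of these counts. Mrpl49 starts 59 bases from Fau, a fusion of a ubiquitin-like protein and cytosolic S30, and had 34.5 and 51.5 TPM, against 41.2 and 140.1 TPM for Fau. Mrpl51 starts 100 bases from Ncapd2, a condensin subunit, and had 37.2 and 51.9 TPM, against 365 and 389.6 TPM. Mrps12 starts 172 bases from Sars2, the mitochondrial seryl-tRNA synthetase, and had 10.1 and 30.9 TPM, against 2.52 and 7.16 TPM. Mrpl32 starts 75 bases from Psma2, a proteasome subunit, and had 54.6 and 26.9 TPM, against 93.7 and 102 TPM. The neighbour was thus higher for Mrpl49, Mrpl51 and Mrpl32 and lower for Mrps12. Mrpl46 and Mrps11 face each other with starts that overlap by 412 bases, and had 9.38 and 11.0 TPM (Mrpl46) and 12.3 and 26.8 TPM (Mrps11). Their exons share 173 bases on opposite strands. In all, 29 members share at least 50 exon bases with another gene, 23 of them with one on the opposite strand. That share was not computed for other genes, so the count only marks stretches where reads may be mixed. The sources used here do not say whether counting used strand, so reads in those stretches cannot be told apart.

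Other genes of mitochondrial translation were mostly present too. All 5 ribosomal proteins with other symbols were detected: the small-subunit genes Dap3 (103 and 117 TPM in replicates 1 and 2), Chchd1 (61.7 and 53.0 TPM), Aurkaip1 (26.6 and 49.3 TPM) and Ptcd3 (12.1 and 12.2 TPM), and the large-subunit gene Gadd45gip1 (7.87 and 10.6 TPM). Of 29 genes for ribosome assembly and ribosomal RNA modification 25 were detected, with a median of 4.50 and 6.77 TPM, below the members' 22.7 and 27.9 TPM in both libraries. The highest were Noa1, a GTPase of small-subunit assembly (66.2 and 30.1 TPM), Rbfa, a small-subunit maturation factor (26.7 and 55.1 TPM), Afg3l2, a subunit of the protease that matures the Mrpl32 protein (28.1 and 47.1 TPM), and Mterf3 (64.7 and 10 TPM). Gtpbp10, a GTPase of large-subunit assembly, had 0 and 0.07 TPM, Fastkd2 0.91 and 0.04 TPM, Trmt61b 0.92 and 0.80 TPM and Ybey 0.59 and 0.89 TPM.

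All 17 matched translation factors were detected, with a median of 16.6 and 13.0 TPM. The highest were the elongation factors Guf1 (63.7 and 27.8 TPM) and Gfm1 (39.0 and 44.1 TPM), the membrane insertase Oxa1l (38.8 and 37.9 TPM) and the methionine aminopeptidase Metap1d (24.9 and 35.7 TPM). The release factor Mtrf1 (1.48 and 1.33 TPM) and the deformylase Pdf (3.10 and 3.33 TPM) were lowest. Of 12 regulators of nuclear genes for mitochondria 11 were detected, led by Myc (101.5 and 207 TPM), Tfam (44.7 and 25.1 TPM), Yy1 (27.7 and 35.6 TPM) and Gabpa (36.3 and 17.3 TPM). Nrf1 had 16.7 and 36.8 TPM, Ppargc1b 2.66 and 3.70 TPM and the coactivator Ppargc1a 0.10 and 0.14 TPM. The genes of the factors whose letters were searched for in the promoters, Gabpa, Nrf1 and Yy1, were thus all detected as RNA. Their proteins and their binding were not measured.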

How the data were processed

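Polyadenylated RNA of DMSO-treated MEL cells was sequenced in 2 libraries of 1 group. Assembly mm10 and annotation GENCODE M4 were used, per the submitters' file lists in the deposit, while the program was not given in the sources used here. As deposited by the authors, tables hold expected counts (estimated reads, unscaled), TPM and FPKM per gene and transcript, and the percent of a gene held by each transcript, per the file headers. Reads shared by copies or transcripts are divided by estimation, which makes single copies uncertain.

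Symbols, classes and coordinates came from GENCODE M21 by Ensembl ID (42462 of 43346 genes matched). Members and gene lists were chosen with earlier results of these data known. Genes named were, per subunit, the 8 highest and 6 lowest members, members under 1 TPM, the 5 largest ratios each way, 10 chosen for their transcripts, the S18 paralogs, the stalk genes and members whose symbol and structure differ; of other lists the 4 highest, 2 lowest and those under 1 TPM. Genes named for pseudogene copies, shared starts and promoters were chosen after their values were seen, as was the 500-base overlap limit. Erythroid genes are given by count with 1 example, and 1 gene that the rule takes is not reported here.

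With 1 group no test was possible: levels are given per library or as mean ± SD. Ratios used rounded expected counts, TMM factors (edgeR 4.0.16), a prior count of 1 and a mean of at least 10 counts; DESeq2 1.42.0 size factors (R 4.3.3) were an alternative. A lowess fit (statsmodels 0.14.6, span 0.3, 3 iterations) gave the GC trend. Copies were found with BLAST+ 2.17.0. Promoter windows came from RefSeq (GRCm38.p6). The ratio step was tested on simulated data. Alternatives were other pseudocounts, units, limits, scalings and each library alone.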

Additional observations from a re-analysis of the deposited data

How the results depend on the processing

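The difference of subunit medians was 0.31 (large minus small, log2). It lay within the replicate spread of that value under another pseudocount, FPKM, posterior means, a filter on low counts and structural subunits (0.28). The difference was 0.29 and 0.33 in single libraries, which with 2 libraries lie within their own SD whatever the data. It turned to -0.15 over protein-coding transcripts only and to -0.046 with means in place of medians, and moved to 0.23 with 5 ribosomal proteins of other symbols added; the last 2 settings, leaving out Mrpl52 with Mrps21 (0.33), and adding pseudogene copies to their genes (77 members detected) were chosen after seeing the data. Members detected numbered 76 in each library alone and 72 to 77 elsewhere. The family share moved to 0.211% of reads in place of 0.268% of TPM, and was 0.240% and 0.296% in single libraries. The difference from cytosolic genes ranged from -4.34 to -3.93 and that of conserved from mitochondria-specific genes from 0.20 to 0.38 in single libraries.

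The median replicate ratio of 0.12 was 0.11 with DESeq2 size factors, 0.12 with no filter, 0.10 with the GC trend removed, 0.37 with total counts and 0.37 as a ratio of TPM. Members at least 2-fold higher in replicate 2 numbered 16 with total counts, 16 by TPM and 3 with the GC trend removed, in place of 9. Members at least 2-fold lower numbered 4 with the GC trend removed, in place of 10. The cause of these shifts was not tested. Of the 19 members past 2-fold, 5 stayed past it with the GC trend removed. No paired analysis was possible because there is only 1 group. Few reads limit Mrpl23 (7.07 and 7.46), and the shallower replicate 2 gave Mrpl16 only 49 reads.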

Other observations

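The ribosomal RNAs that these proteins bind, mt-Rnr1 of the small subunit and mt-Rnr2 of the large one, were read in the same libraries although they are encoded by mitochondrial DNA. mt-Rnr1 had 2280 TPM in replicate 1 and 553 TPM in replicate 2, and mt-Rnr2 had 6048 and 1356 TPM. Both were lower in replicate 2 than in replicate 1, while the median member was 22.7 TPM in replicate 1 and 27.9 TPM in replicate 2. The GC content was 35.8% for mt-Rnr1 and 35.4% for mt-Rnr2, below the members' lowest of 40.4%. Their log2 ratios of replicate 2 over replicate 1 were -2.23 for mt-Rnr1 and -2.34 for mt-Rnr2, below the members' lowest of -1.58. As the replicate ratio moved with GC content, this contrast may not concern the ribosome. Its cause was not tested, nor was the sampling of ribosomal RNA in these libraries of polyadenylated RNA. Mterf3, which is known to act in mitochondrial transcription and ribosome assembly, was also uneven, with 64.7 and 10 TPM and a GC content of 38.1%, below that of every member.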
